A study of Mus musculus with 9 samples.

Results

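The genes described here encode the protein subunits of the mitochondrial respiratory chain and of ATP synthase. They were chosen by name: of 28965 gene symbols in the deposited table, 100 matched the symbols of structural subunits of complexes I (Nduf), II (Sdh), III (Uqcr), IV (Cox) and V (Atp5) or of the protein genes of the mitochondrial genome, after 13 pseudogene symbols had been set aside. The nuclear genome carried 87 of them, namely 40 for complex I, 4 for complex II, 8 for complex III, 18 for complex IV and 17 for complex V. The mitochondrial genome carried the other 13, with 7 for complex I, 1 for complex III, 3 for complex IV and 2 for complex V. Ndufa4 is counted with complex I by its name, although its protein is known as a subunit of complex IV. Ndufab1 and Cyc1 fell outside the name pattern and are counted with the electron carriers.

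RNA was sequenced from 3T3-L1 cells, an established mouse line of adipocyte precursors labelled as wild type and of fibroblast origin. At confluence every culture was given the adipogenic cocktail for 24 h, which combined dexamethasone at 0.1 µg/mL, insulin at 0.1 µg/mL and the phosphodiesterase inhibitor isobutylmethylxanthine at 30 µg/mL. Cells labelled MDI had bovine serum albumin alone beside the cocktail, cells labelled OA had oleic acid (100 µM) on albumin, and cells labelled OA_T0 had this oleic acid with T0901317 (5 µM), a synthetic agonist of the liver X receptors. Each group had 3 poly(A)-selected, strand-specific libraries from this single cell line, and no group received T0901317 without oleic acid. The labels do not say whether replicates were separate cultures, so the p-values measure only the spread between these libraries, which may be technical.

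The respiratory chain passes electrons from NADH (complex I) and succinate (complex II) through ubiquinone to complex III, and from there through cytochrome c to complex IV, which reduces oxygen. Complexes I, III and IV pump protons across the inner mitochondrial membrane, and complex V, the ATP synthase, uses the gradient to make ATP. Subunits of complexes I, III, IV and V come from both genomes: the mitochondrial genes are transcribed as long polycistronic precursors inside the organelle, whereas nuclear genes are transcribed singly and their proteins imported. White adipocyte differentiation is known for an increase in mitochondrial mass over several days, and brown and beige adipocytes for a particularly high content of respiratory chain proteins.

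Libraries are named by group and replicate number. The values were normalised counts. Between 62.3% and 68.8% of the low values of a library were whole to within 0.05 when divided by the library's step. The step was the most frequent low value above 0 in that library. It was read as a single fragment, so the depth and floor that follow are estimates. Estimated depth ran from 17.98 M to 59.88 M fragments (M for mega) per library, and 3 fragments, taken as the floor of detection, corresponded to 1.35 to 4.62 units. This floor covers counting error only. A nuclear rRNA gene model took between 4.40% and 5.96% of the units in 7 libraries, 0.649% in OA 1 and 3.06% in OA_T0 3, so results are also given without these libraries where they change. Of 10 preadipocyte and fibroblast markers all passed the filter, and their summed level lay between 441972 and 450094 in MDI, 428925 and 460530.1 in OA, and 390904 and 440815 in OA_T0. The summed adipocyte markers lay between 6989 and 7697 in MDI, 12946 and 14062 in OA, and 10697 and 11566 in OA_T0, with 6 of 10 symbols above the filter and the adipocyte hormone gene Adipoq at 6.76 or less in every library. Of these 6 markers, 4 rose and 0 fell in OA against MDI, 1 rose and 3 fell in OA_T0 against OA, and 3 rose and 0 fell in OA_T0 against MDI (limma, adjusted p below 0.05), and their part in the results below was not tested. The preadipocyte markers gave 1 rise and 0 falls, 1 rise and 2 falls, and 0 rises and 1 fall in the same order. Fewer cells of a type and less RNA per cell cannot be told apart in these bulk samples. No endothelial marker passed the filter, 1 of 8 muscle markers did (Tnnt2, with Ckm at 0 throughout), and of 8 macrophage markers 3 did, with 0 calls in the 3 comparisons and 0, 2 and 1 at an unadjusted p below 0.05.

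Mitochondrially encoded subunits dominated the level of the chain. The 13 mitochondrial genes made up 4.23% to 5.17% of all deposited units per library, and the 87 nuclear genes together 0.652% to 0.738%. Per kb of annotated exon, mt-Co1, the catalytic subunit of complex IV, was the highest of all members with 273400.4 ± 22389 normalised counts per kb in MDI (SD, n = 3), followed by mt-Cytb of complex III at 148147 ± 11559 and mt-Nd1 of complex I at 126905 ± 13654. The order of mt-Cytb and mt-Nd1 turned in OA_T0, where mt-Nd1 stood higher (165233 ± 17646 against 137239 ± 5349 per kb). Among the nuclear members the highest per kb was Atp5b, the catalytic beta subunit of ATP synthase, with 13023 ± 899 in MDI. The highest nuclear members of the other complexes were Cox6a1 of complex IV with 7315 ± 305, Ndufa4 with 5026 ± 365, Uqcr10 of complex III with 4249.5 ± 202 and Sdhd, a membrane anchor of complex II, with 2364 ± 222 per kb in MDI. Ndufa4 takes the place of complex I here by its name only, so its level does not describe that complex. Atp5md and Atp5pb had no annotated length. The lengths are those of the union of exons of a gene, which sets a gene with a long rarely used exon too low on this scale.

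Group means of the nuclear members differed by small amounts. The mean log2(value + 1) of the 80 nuclear members that passed the filter was 10.47, 10.54 and 10.61 in MDI libraries 1, 2 and 3, 10.60, 10.55 and 10.72 in OA and 10.71, 10.68 and 10.70 in OA_T0. The 3 OA_T0 libraries lay close together and above all 3 MDI libraries, and the OA libraries spread over the range of both, with OA 3 highest of the 9. The corresponding mean of the 13 mitochondrial genes was 15.60, 15.58 and 15.78 in MDI, 15.71, 16.02 and 15.66 in OA and 15.68, 15.72 and 15.51 in OA_T0. All groups overlapped on this measure, and OA 2 stood above every other library.

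**Figure D1:**
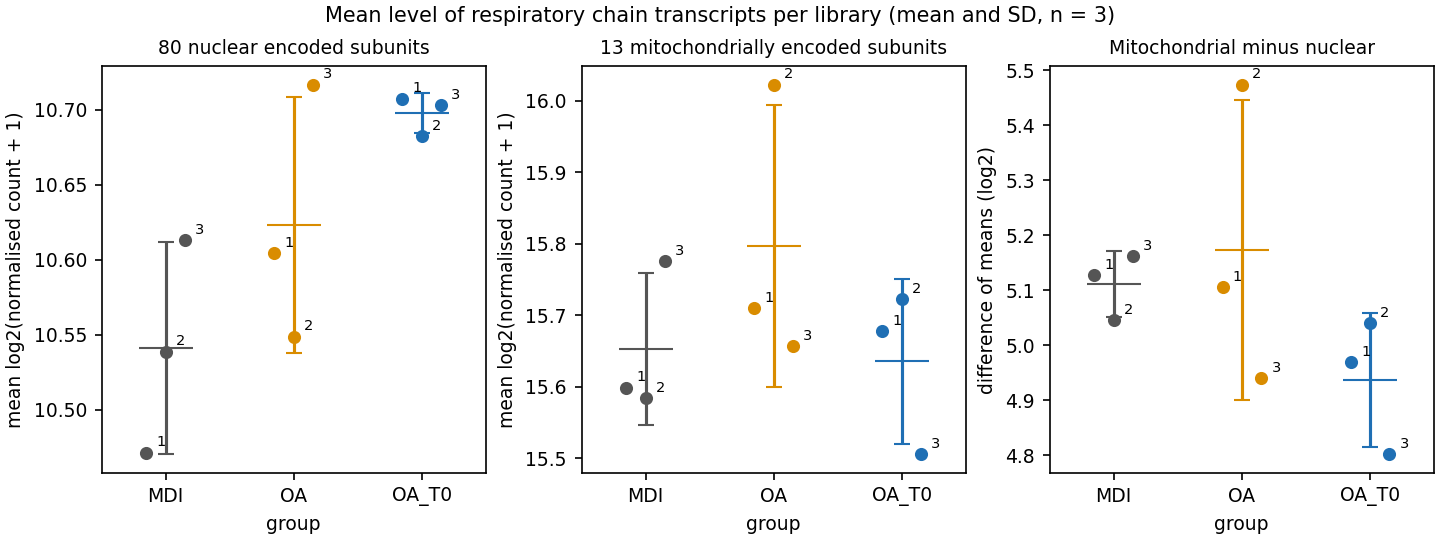
Mean log2(normalised count + 1) per library (points, numbered by replicate) of the 80 tested nuclear subunits, of the 13 mitochondrial subunits and of their difference, by group, with the mean and SD (n = 3). The OA_T0 libraries lie above the MDI libraries for the nuclear subunits, and OA 2 stands apart for the mitochondrial subunits.

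The mitochondrial mean minus the nuclear mean was 5.11 ± 0.06 in MDI, 5.17 ± 0.27 in OA and 4.94 ± 0.12 in OA_T0 on the log2 scale (SD, n = 3). The single libraries gave 5.13, 5.05 and 5.16 in MDI, 5.11, 5.47 and 4.94 in OA and 4.97, 5.04 and 4.80 in OA_T0. Each OA_T0 library lay below each MDI library, by as little as the gap between MDI 2 and OA_T0 2, and the OA libraries overlapped both groups. Without OA 2 the difference of OA from MDI on this measure turned from 0.06 to -0.09 (0.03 without MDI 2, 0.10 without OA 1 and 0.18 without OA 3), and that of OA_T0 from OA went from -0.24 to -0.09. The difference of OA_T0 from MDI was -0.17, and -0.11 without OA_T0 3. As a score over chosen members the measure was given no test.

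The effect of oleic acid was asked in OA against MDI. Few members changed: 4 of 93 tested members rose and 0 fell at an adjusted p below 0.05 (limma), where 3.43% of the 15002 tested genes rose and 3.36% fell. At an unadjusted p below 0.05 there were 20 members. The libraries of the groups did not overlap for 12 members in the higher direction and 2 in the lower, against 13.4% and 12.6% of all genes, so neither count stood above the background. The median difference was 0.09 for the nuclear and 0.16 for the mitochondrial members beside 0.01 for all tested genes on the log2 scale. Differences above 0 were found for 76 of 93 members and for 7989 of the 15002 tested genes. The nuclear median was 0.05 without OA 3 or MDI 1 and 0.14 without OA 2 or MDI 3, and the mitochondrial median was 0.07 without OA 2 and 0.11 without MDI 2.

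The largest rise was in Uqcrh, the hinge subunit of complex III that sits beside the docking site of cytochrome c. Its normalised counts were 1037, 1158 and 1308 in MDI, 1623, 1491 and 1804 in OA and 1305, 1536 and 1215 in OA_T0. All OA libraries exceeded all MDI libraries, and OA_T0 lay in between and overlapped both. The difference of OA from MDI was 0.49 ± 0.10 (SE, adjusted p = 0.00764, limma), a 1.41-fold level. It passed without each single library in turn. The other passing members were accessory subunits of 3 more complexes. Atp5k, subunit e of the membrane part of ATP synthase, had 1190.2, 1335 and 1342 in MDI and 1484, 1600.3 and 1592 in OA, a difference of 0.28 ± 0.069 (SE, adjusted p = 0.0259, limma). Ndufc2, an accessory subunit of the membrane arm of complex I, had 979, 886 and 1026 in MDI and 1113, 1187 and 1184 in OA, a difference of 0.27 ± 0.069 (SE, adjusted p = 0.0292, limma). Cox7a2, the broadly expressed isoform of subunit 7A of complex IV, had 1996, 2106 and 2207 in MDI and 2641, 2272 and 2664 in OA, a difference of 0.26 ± 0.070 (SE, adjusted p = 0.0369, limma). In each of these 3 the OA libraries lay above the MDI libraries, by 1.20-fold to 1.21-fold in the mean. The count of 4 was 1 without MDI 1 or MDI 2, 8 without MDI 3 and 2 without OA 3, and it was 3 to 6 without each other library. Atp5k lost its call without MDI 1, MDI 2, OA 2 or OA 3 (adjusted p = 0.122, 0.0697, 0.084 and 0.0717), Ndufc2 without MDI 1, MDI 2 or any OA library (adjusted p = 0.0552 to 0.168), and Cox7a2 without MDI 1, MDI 2, OA 1, OA 3 or OA_T0 1 (adjusted p = 0.0587 to 0.152). With OA 1 and OA_T0 3, the libraries of low nuclear rRNA share, both left out, Cox7a2 also lost its call (adjusted p = 0.135).

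By complex, 1 of 38 tested nuclear members of complex I, 0 of 4 of complex II, 1 of 8 of complex III, 1 of 13 of complex IV and 1 of 17 of complex V rose in OA. The members nearest their complex's median were Ndufb7 of complex I with a difference of 0.07 ± 0.088 (SE, adjusted p = 0.694, limma), Sdha, the flavoprotein of complex II, with 0.0093 (adjusted p = 0.959), Uqcr10 with 0.06 (adjusted p = 0.621), Cox7a2l, a factor for supercomplex assembly, with 0.12 (adjusted p = 0.318) and Atp5c1, the gamma stalk of ATP synthase, with 0.11 (adjusted p = 0.335). With 4 members the complex II median falls between genes, and it was 0.07, above the value of Sdha. None of the 13 mitochondrial genes passed, with 1 at an unadjusted p below 0.05, and 12 of 13 differences were above 0. Without MDI 3 the nuclear members whose groups did not overlap in the higher direction numbered 38 (23.8% of all genes), and without OA 2 they numbered 31 (19.7% of all genes), against 12 with all libraries.

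**Figure D2:**
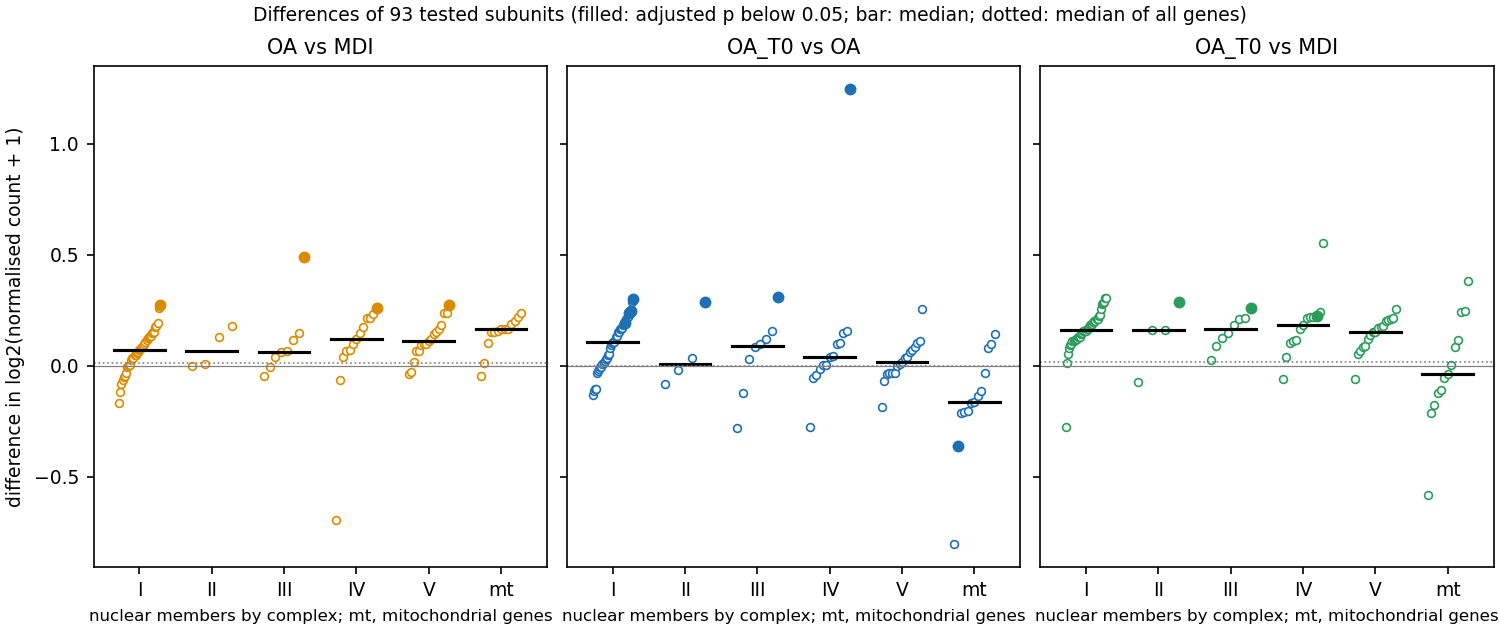
Difference in log2(normalised count + 1) of each tested subunit in the 3 comparisons, nuclear members by complex and mitochondrial genes in the last column; filled points passed at an adjusted p below 0.05 (limma), bars are medians and the dotted line is the median of all 15002 genes. In OA_T0 against MDI nearly all nuclear members lie above 0 by small amounts, whereas the mitochondrial genes spread to both sides.

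Promoter sequence was available for 68 of the 87 nuclear members (73 start sites, RefSeq, build GRCm38.p6), as windows from 250 bases before to 50 bases after the start. They were searched on both strands for short cores of motifs known from respiratory chain promoters. The core GCGCATGCG of NRF1, nuclear respiratory factor 1, stood in 8 of 73 windows (10.96%) and in 1.75% of all 32851 windows of this length. The core CCGGAAG of ETS factors, bound by GABP, stood in 17 (23.3%) and in 8.86% of all. The core AAGATGGCG of YY1 stood in 7 (9.59%, all windows 1.40%) and the core TCAAGGTCA of the estrogen-related receptors in 2 (2.74%, all windows 0.423%). A match is a description of these letters and not a site of binding. The 250 bases before the start of 4 passing members follow, with matches in capitals: Uqcrh, the largest rise with oleic acid (chr4:116075071-116075320, minus strand), with an ETS core next to the start, Atp5k, which also rose with oleic acid (chr5:108434400-108434649, minus strand), with an NRF1 core here and an ETS core after the start, Sdhb, which rose in OA_T0 (chr4:140961021-140961270, plus strand), with no core in these bases and an ETS core after the start, and Cox6a1, which rose in OA_T0 against MDI (chr5:115348959-115349208, minus strand), with cores of NRF1 and ETS. The NRF1 core overlaps its own reverse complement by all but 1 base, so the capitals run over 10 bases there.
Uqcrh: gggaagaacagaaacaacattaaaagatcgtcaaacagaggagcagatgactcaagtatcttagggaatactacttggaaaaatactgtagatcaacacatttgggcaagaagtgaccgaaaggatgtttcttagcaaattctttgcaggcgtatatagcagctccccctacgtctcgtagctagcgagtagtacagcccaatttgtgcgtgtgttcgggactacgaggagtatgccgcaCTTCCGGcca
Atp5k: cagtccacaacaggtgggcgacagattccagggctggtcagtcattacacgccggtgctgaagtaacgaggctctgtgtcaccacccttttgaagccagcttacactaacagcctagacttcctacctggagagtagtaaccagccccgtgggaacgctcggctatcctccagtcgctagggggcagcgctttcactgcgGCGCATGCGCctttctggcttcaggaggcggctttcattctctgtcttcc
Sdhb: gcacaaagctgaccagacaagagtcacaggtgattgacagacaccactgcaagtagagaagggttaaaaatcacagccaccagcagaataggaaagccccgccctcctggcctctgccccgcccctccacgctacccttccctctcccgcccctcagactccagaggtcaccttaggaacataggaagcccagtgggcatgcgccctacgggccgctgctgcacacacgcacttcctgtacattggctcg
Cox6a1: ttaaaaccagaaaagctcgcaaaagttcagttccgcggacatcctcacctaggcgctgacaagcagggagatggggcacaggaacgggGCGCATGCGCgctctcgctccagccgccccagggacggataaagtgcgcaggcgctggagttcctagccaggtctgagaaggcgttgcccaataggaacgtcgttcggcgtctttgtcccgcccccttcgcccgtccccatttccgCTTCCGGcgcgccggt
The median log2 difference of tested members with and without the NRF1 core was 0.03 and 0.10 in OA against MDI, 0.13 and 0.06 in OA_T0 against OA, 0.16 and 0.17 in OA_T0 against MDI. For the ETS core it was 0.09 and 0.08 in OA against MDI, 0.05 and 0.07 in OA_T0 against OA, 0.20 and 0.16 in OA_T0 against MDI. For the YY1 core it was 0.05 and 0.09 in OA against MDI, 0.09 and 0.05 in OA_T0 against OA, 0.15 and 0.17 in OA_T0 against MDI. For the core of the estrogen-related receptors, with 2 members, it was 0.17 and 0.08 in OA against MDI, -0.03 and 0.08 in OA_T0 against OA, 0.14 and 0.17 in OA_T0 against MDI. These medians are a description without a test, and for none of the 4 cores did members with it lie on the same side in all 3 comparisons.

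The addition of the agonist was asked in OA_T0 against OA, which shares the OA libraries with the comparison above. Of 93 tested members 8 rose and 1 fell (limma, adjusted p below 0.05), where 8.27% of all genes rose and 6.84% fell. The groups did not overlap for 18 members in the higher and 7 in the lower direction, against 17.1% and 15% of all genes. The rises and the members without overlap in the higher direction came near these shares, and the members in the lower direction stayed below them. The nuclear median was 0.05 and the mitochondrial median -0.16 on the log2 scale, beside -0.0023 for all genes. Without OA 3 the nuclear median was 0.12 and the nuclear members without overlap in the higher direction numbered 47 (27.1% of all genes) instead of 17, and without OA 2 the nuclear median was 0.02. The mitochondrial median was -0.05 without OA 2 and -0.10 without OA_T0 3.

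The largest rise was in Cox6a2, the heart and skeletal muscle isoform of subunit 6A of complex IV, whose normalised counts were low: 42.3, 38.1 and 50.7 in MDI, 26.8, 25.5 and 27.1 in OA and 78.6, 46.2 and 72.4 in OA_T0. The OA libraries were the lowest and agreed closely, and all OA_T0 libraries lay above them. The difference of OA_T0 from OA was 1.25 ± 0.24 (SE, adjusted p = 0.00304, limma), a 2.37-fold level. Against MDI the difference of OA_T0 was 0.55 (adjusted p = 0.24) with overlapping libraries, and that of OA was -0.69 (adjusted p = 0.106) without overlap. Of the muscle markers listed above only Tnnt2 passed the filter, and it fell in OA against MDI (-0.77, adjusted p = 0.0306), differed by -0.77 (adjusted p = 0.0539) between OA_T0 and MDI, and by -0.006 (adjusted p = 0.988) between OA_T0 and OA. Its part in the values of Cox6a2 was not tested. Uqcrq, the ubiquinone-binding accessory subunit of complex III, followed with 2806, 2832 and 2935 in MDI, 2671, 2667 and 2965 in OA and 3643, 3188 and 3448 in OA_T0. All 3 OA_T0 libraries exceeded the other 6. The difference from OA was 0.31 ± 0.064 (SE, adjusted p = 0.0045, limma), a 1.24-fold level. Sdhb, the iron-sulfur subunit of complex II, had 1569.8, 1756 and 1826 in MDI, 1664, 1650.3 and 1826 in OA and 2211, 1991 and 2075 in OA_T0, and again every OA_T0 library was above all others. Its difference from OA was 0.29 ± 0.070 (SE, adjusted p = 0.0126, limma).

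The other 5 risers belonged to complex I. Ndufb9, of the membrane arm, had 1475, 1415 and 1577 in OA and 1744, 1739 and 1810.4 in OA_T0, a difference of 0.25 ± 0.059 (SE, adjusted p = 0.0116, limma). Ndufa8, an accessory subunit on the side of the intermembrane space, had 1702, 1760.3 and 1818 in OA and 2012, 1966 and 2052 in OA_T0, a difference of 0.19 ± 0.056 (SE, adjusted p = 0.0308, limma). In both, OA_T0 lay above OA without overlap at a 1.19-fold level for Ndufb9 and a 1.14-fold level for Ndufa8. Ndufa12 had 736, 705 and 811 in OA and 899, 852 and 903 in OA_T0, a difference of 0.24 ± 0.073 (SE, adjusted p = 0.0389, limma). Ndufs6, an accessory subunit that binds zinc, had 703, 675 and 646 in OA and 813, 755 and 824 in OA_T0, a difference of 0.24 ± 0.073 (SE, adjusted p = 0.0377, limma). Ndufb4c had 1039, 1003 and 1176 in OA and 1347, 1229 and 1389 in OA_T0, a difference of 0.30 ± 0.083 (SE, adjusted p = 0.0238, limma). Ndufb4c and Ndufs6 are uncertain as single genes, because Ndufb4 and Ndufs6b are close copies between which reads could be split.

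The 8 rises were 2 without OA 1 and 2 without OA 2, 3 without OA_T0 1, 4 without OA_T0 3 and 14 without OA 3. Cox6a2 and Uqcrq passed without each single library, whereas Sdhb lost its call without OA 1, OA 2 or OA_T0 1 (adjusted p = 0.0631, 0.0542 and 0.0826) and Ndufb9 without OA 1 or OA 2 (adjusted p = 0.0536 and 0.0588). Ndufa8 and Ndufb4c lost theirs without OA 1, OA 2, OA_T0 1 or OA_T0 3 (adjusted p = 0.0732 to 0.141), Ndufa12 without those or MDI 2 (adjusted p = 0.0586 to 0.151), and Ndufs6 without those, MDI 2 or OA 3 (adjusted p = 0.0541 to 0.14). With OA 1 and OA_T0 3 both left out, 1 member rose, which was Cox6a2 (adjusted p = 0.0319). By complex, 5 of 38 nuclear members of complex I rose, 1 of 4 of complex II, 1 of 8 of complex III, 1 of 13 of complex IV and 0 of 17 of complex V. Members nearest their complex's median were Ndufa5 with 0.10 (adjusted p = 0.366), Sdhc with 0.04 (adjusted p = 0.737), Uqcrc1 with 0.10 (adjusted p = 0.422), Cox5b with 0.04 (adjusted p = 0.744) and Atp5mpl with 0.02 (adjusted p = 0.931). The median of the 4 members of complex II itself was 0.0072.

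**Figure D3:**
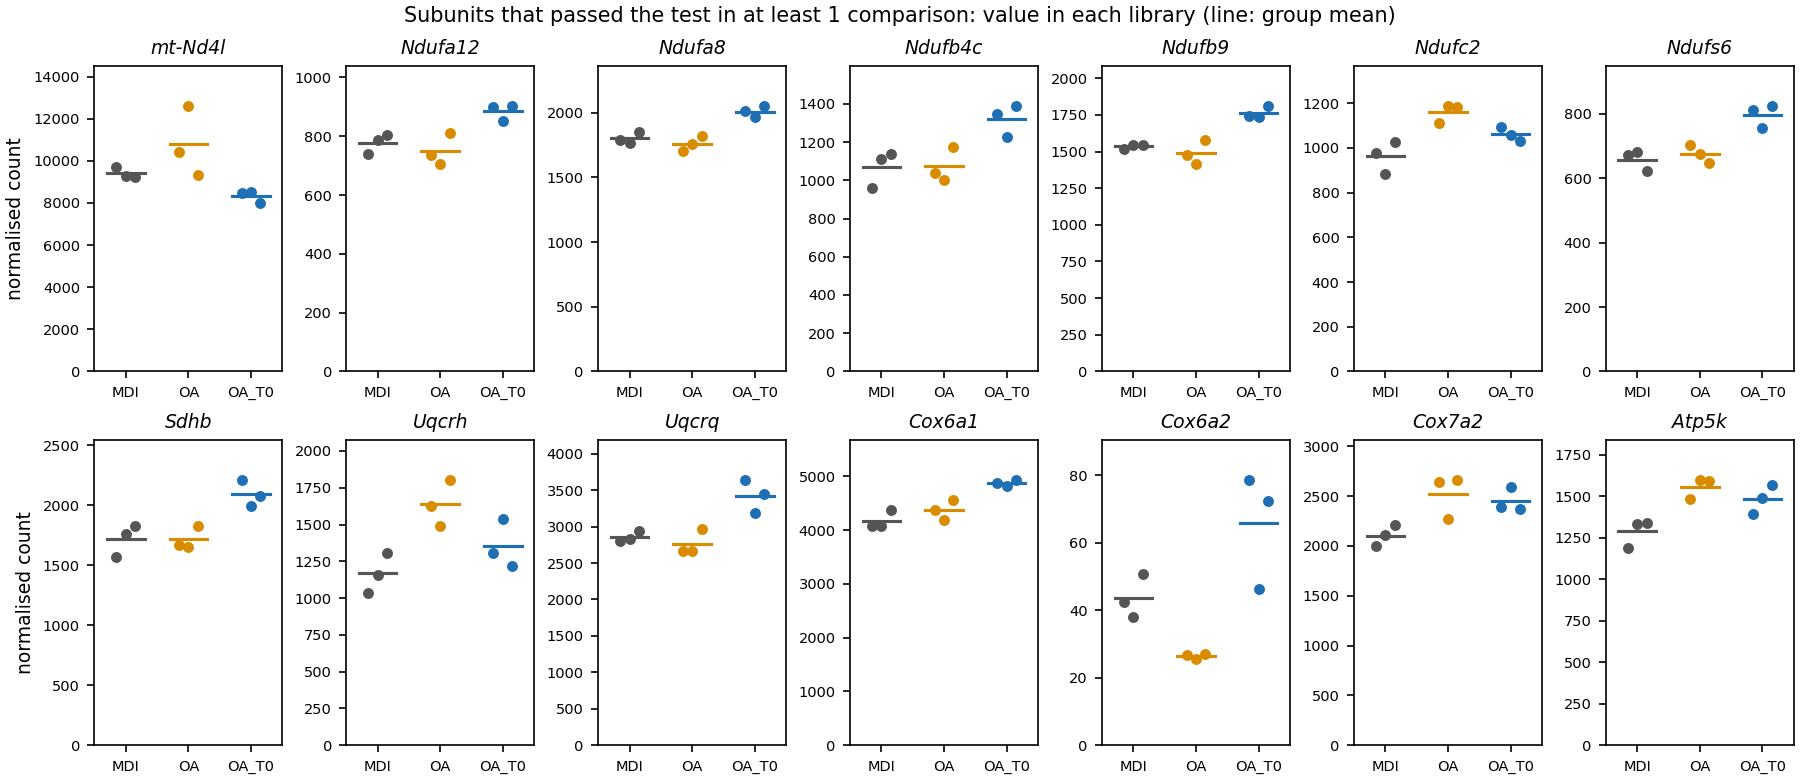
Normalised counts per library (points) and group means (lines) of the 14 subunits that passed at an adjusted p below 0.05 (limma) in at least 1 of the 3 comparisons; each axis starts at 0. Uqcrh, Atp5k, Ndufc2 and Cox7a2 were higher in OA than in MDI, mt-Nd4l was lower in OA_T0 than in OA, and the other members were highest in OA_T0.

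Oleic acid with the agonist against vehicle, OA_T0 against MDI, gave a small shift of most nuclear members and few calls. Of 93 tested members 3 rose and 0 fell (limma, adjusted p below 0.05), where 1.25% of all genes rose and 1.36% fell. Below an unadjusted p of 0.05 there were 43 members. The groups did not overlap for 47 members in the higher direction and 3 in the lower, against 13.3% and 10.2% of all genes. Of the 80 nuclear members 44 lay without overlap above MDI and 0 below, and 76 differences were above 0. Over all tested genes 8155 of 15002 differences were above 0. Over the 14686 tested genes with a known length, the rank correlation of the difference was -0.18 with length and 0.12 with level. Over the 78 nuclear members with a length it was -0.22 and -0.20. The part of length and level in the shift was not tested. The nuclear median was 0.16 on the log2 scale, a 1.12-fold level, beside 0.02 for all genes. This median was 0.11 without MDI 1, 0.21 without MDI 3 and 0.16 to 0.17 without each other library, and 0.13 to 0.14 under quantile normalisation and both scalings to equal totals of the libraries. The members share their libraries, so the 44 genes are not independent observations of the 3 against 3 libraries. Without MDI 3 there were 69 such members (24.5% of all genes), and without each other library 44 to 52. Some other mitochondrial lists lay mostly above MDI in OA_T0 as well. A difference above 0 was found for 74 of 78 mitochondrial ribosomal protein genes (34 without overlap above MDI and 1 below, median 0.13). The same held for 12 of 13 citrate cycle enzymes (4 and 0, median 0.09) and 15 of 16 carriers, pores and import factors (5 and 1, median 0.11). It also held for 41 of 52 electron carriers and assembly factors (13 and 0, median 0.10). Lists nearer the level of all genes were those for expression of the mitochondrial genome (15 of 29 above 0, 3 and 3 without overlap, median 0.0052) and regulators of respiratory chain genes (6 of 10 tested, 1 and 3, median 0.01).

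The 3 passing members came from complexes IV, III and II. Cox6a1, the ubiquitous isoform of subunit 6A, had 4069, 4083 and 4378 in MDI, 4379.8, 4194 and 4563 in OA and 4877, 4824 and 4935 in OA_T0. OA_T0 was above all other libraries, and OA and MDI overlapped. Its difference from MDI was 0.22 ± 0.055 (SE, adjusted p = 0.0418, limma), a 1.17-fold level. Uqcrq and Sdhb, whose values are given above, differed from MDI by 0.26 ± 0.064 (SE, adjusted p = 0.0425, limma) and 0.29 ± 0.070 (SE, adjusted p = 0.0434, limma). The count of 3 was 0 without MDI 1, MDI 2, OA 1 or OA_T0 1, 1 without OA_T0 3, 9 without MDI 3 or OA 3, and 4 and 2 without OA 2 and OA_T0 2. Without MDI 1 the adjusted p was 0.15 for Cox6a1, 0.154 for Uqcrq and 0.19 for Sdhb. Without MDI 2 it was 0.177, 0.166 and 0.124, without OA 1 0.0695, 0.0624 and 0.0649, without OA_T0 1 0.18, 0.237 and 0.231, and without OA_T0 3 0.0884, 0.078 and 0.0668. Cox6a1 also missed the threshold without OA_T0 2 (adjusted p = 0.0676).

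The shift had nearly the same size in every complex. The median difference of OA_T0 from MDI was 0.16 in complex I (38 members), 0.16 in complex II (4), 0.17 in complex III (8), 0.18 in complex IV (13) and 0.15 in complex V (17). Members without overlap above MDI numbered 22, 2, 5, 7 and 8 in complexes I to V. As members near the median, Ndufa4, counted with complex I by its name only, had 2898, 3158 and 3352 in MDI and 3497, 3628 and 3409.7 in OA_T0, a difference of 0.17 ± 0.065 (SE, adjusted p = 0.195, limma). Uqcr10, a small membrane subunit of complex III, had 1766, 1828 and 1939 in MDI and 2100.3, 2007 and 2172 in OA_T0, a difference of 0.18 ± 0.063 (SE, adjusted p = 0.143, limma). In both, each OA_T0 library lay above each MDI library, yet the difference missed the threshold. Sdhc, Cox8a and Atp5j differed by 0.16, 0.18 and 0.15 (adjusted p = 0.17, 0.208 and 0.222). The sum of all complex IV members was 31484 ± 1989 in MDI, 34271 ± 2084 in OA and 35239.8 ± 44.4 in OA_T0 (nuclear genes, normalised counts, SD, n = 3). The spread in OA_T0 was the smallest of the 3 groups for the sums of complexes I to V.

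The mitochondrial genes behaved less evenly. In OA_T0 against OA, mt-Nd4l, a small hydrophobic subunit of the proton-pumping arm of complex I, fell. Its normalised counts were 9729.9, 9260.4 and 9245 in MDI, 10412, 12601 and 9347 in OA and 8460.0, 8509.7 and 7998 in OA_T0. All OA_T0 libraries lay below the other 6, and OA 2 was the highest. The difference from OA was -0.36 ± 0.084 (SE, adjusted p = 0.00899, limma), a 0.78-fold level, and from MDI -0.18 (adjusted p = 0.272). The call against OA was kept without each single library, with -0.25 (adjusted p = 0.0334) without OA 2, and missed with OA 1 and OA_T0 3 both left out (adjusted p = 0.0543). The count of falls was 2 without MDI 3, OA 3 or OA_T0 2. The gene overlaps mt-Nd4, on the same transcript, so reads at the junction could be assigned to either.

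mt-Atp8, a small subunit of the membrane part of ATP synthase, had the widest standard error of the mitochondrial genes. It had 8228, 5478 and 6911 in MDI, 7080.0, 15773 and 4406 in OA and 4541, 5169 and 3947 in OA_T0. OA 2 was far above OA 1 and OA 3, and every OA_T0 library lay below every MDI library (difference -0.58, adjusted p = 0.314) while overlapping OA. The difference of OA_T0 from OA was -0.80 ± 0.30 (SE, adjusted p = 0.0855, limma), it was -0.30 (adjusted p = 0.316) without OA 2, and it passed without OA 3 (-1.22, adjusted p = 0.0045). mt-Atp6, the proton channel subunit that shares a transcript with mt-Atp8, had 60218, 56951 and 71754 in MDI, 65853, 81652 and 64623 in OA and 66781, 66758 and 50938 in OA_T0. All groups overlapped, and OA 2 was again the highest library but by less than for mt-Atp8. The 2 reading frames overlap, so reads there could be assigned to either gene.

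Of the first 4 protein genes of the heavy-strand transcript, 3 lay without overlap above MDI in OA_T0, and none passed the test. mt-Nd1 had 113298, 114526 and 136520.0 in MDI, 134503, 160405 and 134366 in OA and 166927, 168799 and 138659 in OA_T0. mt-Co1 had 392990.0, 413709 and 460512 in MDI, 480781, 472947 and 449552 in OA and 511438, 507793 and 480920.0 in OA_T0. mt-Co2 had 70485, 70904 and 79811 in MDI, 80165, 88979 and 78628 in OA and 89822, 91766 and 80061 in OA_T0. For these 3, the subunit at the base of the membrane arm of complex I and the catalytic core of complex IV, each OA_T0 library was above each MDI library, and the differences missed the threshold (0.38, 0.25 and 0.24, adjusted p = 0.101, 0.332 and 0.17, limma). mt-Nd2, which lies between mt-Nd1 and mt-Co1, had 57396, 59481 and 73877 in MDI, 68641, 80773 and 69197 in OA and 70629.5, 70614 and 60475 in OA_T0, with a difference from MDI of 0.09 (adjusted p = 0.702). mt-Co3 had 58049.7, 56671 and 68085 in MDI, 63288, 76219 and 63449 in OA and 70137, 71026 and 57225 in OA_T0. The 3 groups overlapped for both genes, with OA 2 highest. Farther along, mt-Nd3 had 4059, 4702 and 4307 in MDI, 4652, 5723 and 4362 in OA and 4250.4, 4753 and 4083 in OA_T0, with differences of OA_T0 of -0.16 from OA and 0.0017 from MDI, the second of which was below 0 under both scalings to equal totals.

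mt-Nd4 had 103705, 106340.0 and 133985 in MDI, 119474, 139236 and 123409 in OA and 114519, 116668 and 98316 in OA_T0. mt-Nd5 had 105020.0, 110222 and 126059 in MDI, 103790.0, 126675 and 114166 in OA and 105805, 107626 and 98963 in OA_T0. These are the large antiporter-like subunits of complex I, and mt-Nd4 was lower in OA_T0 than in OA without overlap while mt-Nd5 overlapped (-0.21 and -0.14, adjusted p = 0.227 and 0.388, limma; under quantile normalisation the second was 0.02). mt-Cytb had 157745, 166888 and 183809 in MDI, 187169, 186354 and 171494 in OA and 154483, 163978 and 152542 in OA_T0. This gene for cytochrome b, the core of complex III, lay lower in OA_T0 than in OA without overlap (-0.21, adjusted p = 0.172). mt-Nd6 had 31389, 32305 and 35259 in MDI, 25459, 39724 and 32011 in OA and 29023, 29817 and 26435 in OA_T0. It is the only protein gene of the light strand and lies antisense to heavy-strand precursor RNA; the strand setting of the counting is not given in the sources used here. Its OA_T0 libraries lay below MDI without overlap (-0.21, adjusted p = 0.346).

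Placed in their order along the genome, the differences of the 13 protein genes tended to be lower for genes later in this order. The order includes mt-Nd6, which belongs to the light-strand transcript, and no value was computed for the heavy-strand genes alone. The rank correlation of the difference with gene order was -0.69 in OA_T0 against MDI and ran from -0.71 to -0.63 with each library left out in turn. It was -0.68 in OA against MDI (-0.70 to -0.54 with each library left out) and -0.58 in OA_T0 against OA (-0.64 to -0.45). Under quantile normalisation it was weaker, at -0.53 in OA_T0 against MDI, -0.19 in OA against MDI and -0.25 in OA_T0 against OA. The cause of this change was not tested. These are descriptions over 13 genes of the same transcripts and the same libraries, and the comparisons share groups. The mitochondrial rRNA genes mt-Rnr1 and mt-Rnr2 (12S and 16S), which precede the protein genes and are not subunits of the chain, rose in OA_T0. mt-Rnr1 had 6688, 7654 and 7473 in MDI, 8191, 9731 and 8250.0 in OA and 15120.4, 12515 and 12172 in OA_T0. mt-Rnr2 had 26456, 29074 and 32498 in MDI, 32547, 38489.8 and 31089 in OA and 54158, 49379 and 47338 in OA_T0. All OA_T0 libraries stood above the other 6 in both, with differences from OA of 0.60 ± 0.088 (SE, adjusted p = 0.000309, limma) and 0.57 ± 0.094 (SE, adjusted p = 0.000915, limma), and both passed without each single library. The ratio of these rRNAs to the 13 mitochondrial mRNAs was 0.028 to 0.032 in the MDI and OA libraries and 0.044 to 0.050 in OA_T0. The libraries were made by oligo-dT selection, and mitochondrial rRNAs are known to carry only short tails. Of the 8 genes of the list on RNA selection that passed the filter, 2 rose in OA_T0 against OA (these rRNAs) and 1 fell, the nuclear retained RNA Neat1 with -0.33 (adjusted p = 0.0431). The part of selection in the mitochondrial results was not tested.

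**Figure D4:**
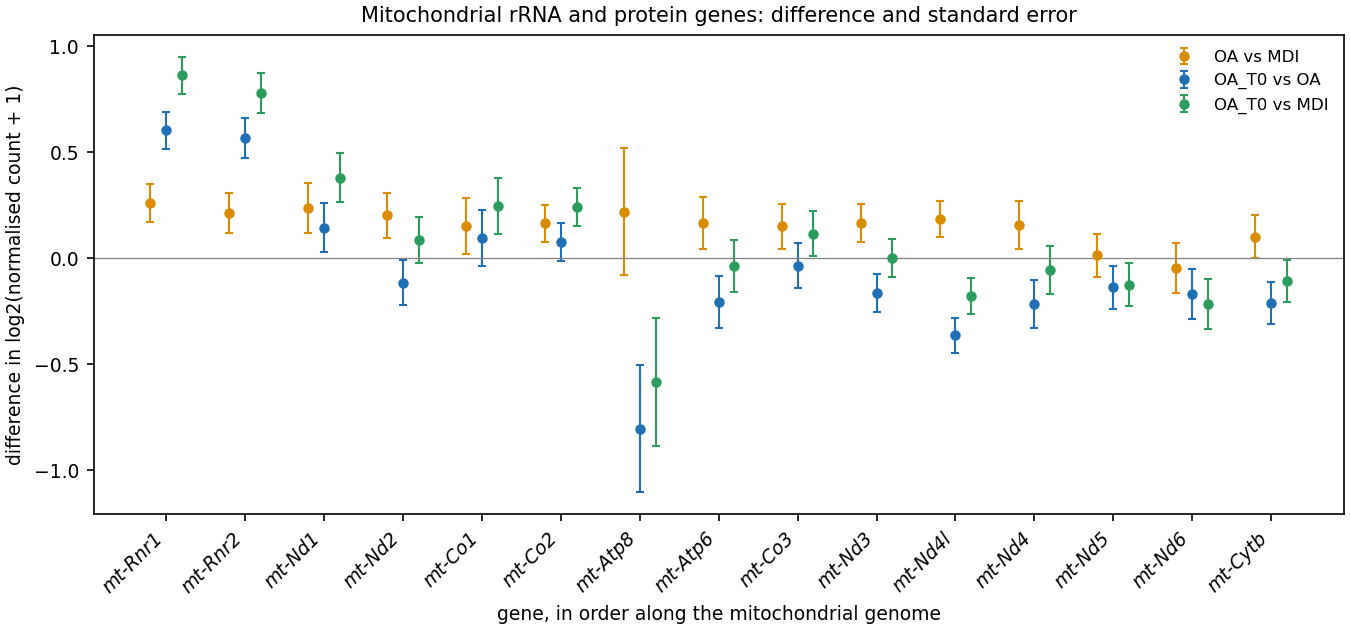
Difference in log2(normalised count + 1) with its standard error for the 15 mitochondrial rRNA and protein genes, in their order along the mitochondrial genome, in the 3 comparisons (limma, n = 3 per group). The rRNA genes at the left are higher in OA_T0, and mt-Atp8 has the widest error. The genes from mt-Nd4l to mt-Cytb lie below 0 in OA_T0 against OA and against MDI. Under quantile normalisation mt-Nd5 against OA and mt-Nd4 against MDI were above 0. The difference of mt-Nd4 against MDI was also above 0 without MDI 3, without OA_T0 3, and with OA 1 and OA_T0 3 both left out.

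Isoforms were compared for subunits of complex IV, for subunit c of ATP synthase and for Ndufa4, to see which form these cells transcribed. On the scale of normalised counts per kb, Cox4i1, the common isoform of subunit 4, reached 6628 ± 404 in MDI, whereas Cox4i2, the lung isoform, was at 0 in 7 libraries and at 4.03 units or less in the others. Cox6a1 reached 8544 ± 97.6 and Cox6a2 96.7 ± 25.3 per kb in OA_T0, so the riser Cox6a2 stayed a minor form. Cox7a2 and Cox7a2l reached 3191 ± 160.3 and 2925 ± 291 per kb in MDI, and Cox7a1, the muscle and brown fat form, stayed at 3.10 units or less. Cox8a reached 5789 ± 374 per kb, and Cox8b, a marker of brown fat and muscle, was at 0 in all 9 libraries, as was Cox6b2, the testis isoform, beside Cox6b1 at 3762 ± 348. Cox7b reached 3368 ± 300.5 per kb and Cox7b2 stayed at 2.01 units or less. Counts of 0 here allow up to 1.35 to 4.62 units, depending on the library.

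Of the 3 genes for subunit c of ATP synthase, which encode the same mature protein, Atp5g3 reached 6878 ± 625 per kb in MDI, far above Atp5g2 with 125 ± 8.11 and Atp5g1 with 109 ± 14.6. The last pair did not differ beyond their spread. The exon union of Atp5g1 was long (4912 bases, against 731 for Atp5g2 and 724 for Atp5g3), which lowers Atp5g1 on this scale. Atp5g1 differed between OA_T0 and OA by 0.26 without overlap (adjusted p = 0.1, limma), with 502, 480.5 and 568 in OA and 625, 588 and 635 in OA_T0. Ndufa4l2, the hypoxia-responsive relative of Ndufa4, had 1.35, 1.09 and 1.13 in MDI, 1.12, 2.68 and 3.01 in OA and 4.14, 9.05 and 3.08 in OA_T0 and was below the filter. The values of 4.14 in OA_T0 1 and 9.05 in OA_T0 2 lay above the floors of these libraries (3.10 and 3.02), and the others lay at or below theirs. All were low beside Ndufa4 at 5628 ± 176 per kb in OA_T0, and no order of the groups is read from them. Ndufa11b, a copy of Ndufa11, was below the filter as well, at 9.45 units or less.

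**Figure D5:**
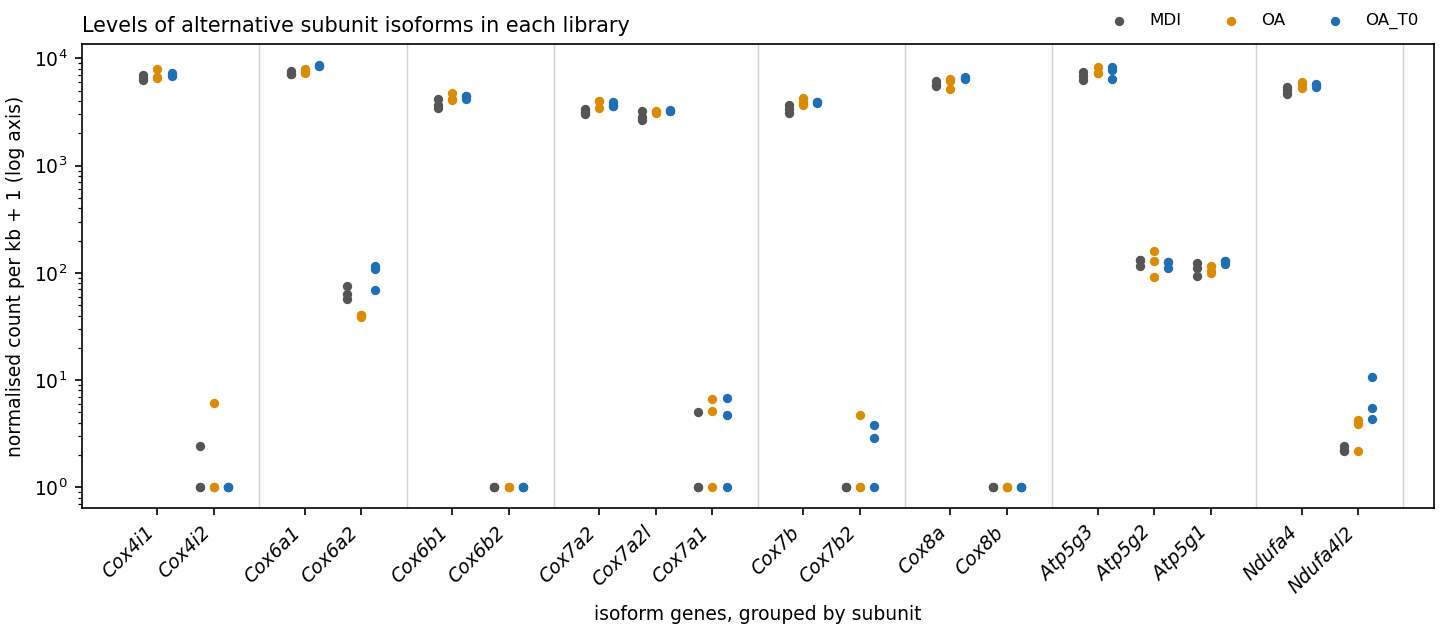
Normalised counts per kb of exon, plus 1, on a log axis, of alternative isoforms of 8 subunits in each library, by group. At most 2 forms of each subunit lie above 1000 per kb, while Cox6b2 and Cox8b are at 0 in every library and Cox6a2 is highest in OA_T0.

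Other genes of mitochondrial biogenesis were counted on lists chosen by function, to be read against the shares of all genes (8.27% rose and 6.84% fell in OA_T0 against OA, 3.43% and 3.36% in OA against MDI, 1.25% and 1.36% in OA_T0 against MDI). Of 52 electron carriers and assembly factors, 5 rose and 1 fell in OA_T0 against OA (3 rises without OA 2 and 2 without OA_T0 1), 1 rose and 2 fell in OA against MDI, and 0 passed in OA_T0 against MDI (limma, with 8 at an unadjusted p below 0.05). Among the risers were Cox18 with 0.40 (adjusted p = 0.00257), an insertase for complex IV, and Cox10 with 0.42 (adjusted p = 0.00505), an enzyme of heme a synthesis. Cyc1, the cytochrome c1 subunit of complex III that the name pattern left out, had 1998, 1857 and 2084 in OA and 2438, 2306 and 2256 in OA_T0 and rose by 0.24 ± 0.063 (SE, adjusted p = 0.0194, limma). The 5 rises among 52 came near the share of all genes. Of 78 mitochondrial ribosomal protein genes, 16 rose in OA_T0 against OA and 0 fell, 0 rose and 1 fell in OA against MDI, and 1 rose and 0 fell in OA_T0 against MDI. The calls of smallest adjusted p were Mrps18b with 0.35 (adjusted p = 0.00684) and Mrpl12 with 0.29 (adjusted p = 0.00832). The 16 rises among 78 exceeded the share of all genes, but the count was 2 without OA 1, 4 without OA 2, 3 without OA_T0 1, 5 without OA_T0 3 and 10 without MDI 2. Of 16 carriers, pores and import factors 4 rose and 0 fell in that comparison, with Tomm40 with 0.46 (adjusted p = 0.000535), the channel of the outer membrane translocase, but 1 rose without OA 1 or OA_T0 1, and 0 passed in the other 2 comparisons (3 and 4 at an unadjusted p below 0.05).

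Of 29 genes for expression of the mitochondrial genome, 5 rose and 1 fell in OA_T0 against OA, 0 rose and 2 fell in OA against MDI, and 1 rose and 1 fell in OA_T0 against MDI. The fall was Pnpt1 with -0.45 (adjusted p = 0.000271), polynucleotide phosphorylase of mitochondrial RNA decay, which also fell against MDI (-0.45, adjusted p = 0.00145), and Tbrg4 with 0.32 (adjusted p = 0.00436) was among the rises. The 5 rises were 2 without OA 1, OA 2, OA_T0 1 or OA_T0 3. Of 10 tested regulators of respiratory chain genes 2 rose and 0 fell in OA_T0 against OA, 0 rose and 1 fell in OA against MDI, and 0 passed in OA_T0 against MDI (1 at an unadjusted p below 0.05). Ppargc1b, a coactivator of nuclear receptors at mitochondrial genes, had 15.3, 19.6 and 14.6 in MDI, 10.1, 10.7 and 7.02 in OA and 34.1, 23.1 and 20.0 in OA_T0. All OA_T0 libraries were above all OA libraries, with a difference of 1.37 ± 0.35 (SE, adjusted p = 0.0172, limma), and the other riser was Pprc1 with 0.28 (adjusted p = 0.00689), a related coactivator. Without OA_T0 1 the rises among regulators numbered 1. Of 13 citrate cycle enzymes 0 passed in any comparison (limma), with 1, 1 and 3 at an unadjusted p below 0.05.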

How the data were processed

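The table deposited by the authors holds normalised counts per gene (a signal value here, since they are not whole reads), and how they were scaled is not given in the sources used here. The submitters' processing notes name the build mm9 and list DESeq2, HTSeq, TopHat and CASAVA 1.8.2 without saying what each did. Between 62.3% and 68.8% of the low values, at 5 to 50 steps, came within 0.05 of a whole multiple of the library's step, so no count test was run. Values were taken as log2(value + 1), genes with a mean of at least 10 were kept (15002), and all 9 libraries entered a linear model in R 4.3.3 with limma 3.58.1, with Benjamini-Hochberg adjustment over all tested genes at 0.05. Fold changes on this scale understate changes of low genes. Groups came from the sample labels, with 3 libraries in each and no covariate. Values per kb used exon unions of GENCODE M21, and promoter windows came from RefSeq.

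The members and all gene lists were chosen with earlier results of these data known. Named genes were the passing members, the mitochondrial genes, the highest member per kb and the member nearest the median of each complex, isoform pairs, untested members, and at most 2 passing genes of smallest adjusted p per list, with Cyc1, Pnpt1 in its second comparison, and the only tested muscle marker and Neat1 added for their content. Lists covered electron carriers and assembly, expression of the mitochondrial genome, mitochondrial ribosomes, regulators, the citrate cycle, import, uncoupling, cell type markers and RNA selection. Alternatives changed the pseudocount (0.5 and 5), the filter (none and 50), the scaling, the libraries fitted, the variance estimate and the replicate block, and left out each library in turn and both libraries of low rRNA share. The fit was tested on simulated data.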

Additional observations from a re-analysis of the deposited data

How the results depend on the processing

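The counts of passing members depended on single libraries. With each library left out in turn, the rises ranged from 1 to 8 in OA against MDI, from 2 to 14 in OA_T0 against OA (falls from 1 to 2) and from 0 to 9 in OA_T0 against MDI. Without a filter on low values, 0, 5 and 0 members rose in these comparisons and 0 fell in OA_T0 against OA. Quantile normalisation gave 8 rises in OA against MDI and 3 falls in OA_T0 against OA. Scaling to equal totals gave 5 rises and 2 falls in OA_T0 against OA and 0 rises in OA_T0 against MDI, and without mitochondrial and rRNA genes in the totals it gave 2 falls in OA_T0 against OA. Fitting only the compared groups gave 5 rises in OA_T0 against OA and 1 fall in OA_T0 against MDI. With both libraries of low rRNA share left out, 1 member rose and 0 fell in OA_T0 against OA and 0 rose in OA_T0 against MDI. The causes of these changes were not tested. The median of all genes moved by less than 0.1 under every scaling. The differences between mitochondrial and nuclear members moved by less than their spread, but this spread exceeded the difference of OA from MDI (0.20 against 0.06) and came near that of OA_T0 from OA (0.21 against -0.24), and the first turned to -0.09 without OA 2. With a replicate block 4, 7 and 2 members rose and 1 fell in OA_T0 against OA, and the calls of Cox7a2 in OA against MDI, Ndufs6 in OA_T0 against OA, and Cox6a1 and Sdhb in OA_T0 against MDI were lost. No label says whether the replicate numbers pair the samples. Deviations of same-numbered libraries correlated between 0.0097 and 0.26 in OA against MDI, -0.12 and 0.027 in OA_T0 against OA, and -0.26 and -0.042 in OA_T0 against MDI. In these comparisons 2, 1 and 0 of 6 libraries correlated best with their own number. With so few libraries these values cannot decide whether the samples were paired. Changes of sign were looked for only in members that passed in any comparison, in the mitochondrial members and in mt-Rnr1 and mt-Rnr2. Among these genes, differences that changed sign had not passed the threshold in the reported fit. With equal totals these were Ndufb4c OA against MDI -0.013, mt-Nd5 OA against MDI -0.0032, mt-Nd3 OA_T0 against MDI -0.033. Under equal totals without mitochondrial and rRNA genes they were Ndufb4c OA against MDI -0.020, mt-Nd5 OA against MDI -0.010, mt-Nd3 OA_T0 against MDI -0.027. With both libraries of low rRNA share left out they were Sdhb OA against MDI 0.019, mt-Nd6 OA against MDI 0.11, Cox7a2 OA_T0 against OA 0.018, mt-Co3 OA_T0 against OA 0.021, mt-Atp6 OA_T0 against MDI 0.092, mt-Nd4 OA_T0 against MDI 0.021. Under quantile normalisation they were mt-Nd5 OA against MDI -0.024, mt-Co1 OA_T0 against OA -0.49, mt-Co3 OA_T0 against OA 0.023, mt-Nd5 OA_T0 against OA 0.024, mt-Nd4 OA_T0 against MDI 0.051. Those that changed sign with a library left out ranged as follows: Ndufb4c OA against MDI from -0.072 to 0.051, Ndufs6 OA against MDI from -0.0023 to 0.068, Sdhb OA against MDI from -0.065 to 0.044, mt-Atp8 OA against MDI from -0.28 to 0.64, mt-Nd5 OA against MDI from -0.059 to 0.090, mt-Nd6 OA against MDI from -0.21 to 0.11, mt-Co3 OA_T0 against OA from -0.089 to 0.067, mt-Atp6 OA_T0 against MDI from -0.11 to 0.092, mt-Nd3 OA_T0 against MDI from -0.062 to 0.058, mt-Nd4 OA_T0 against MDI from -0.12 to 0.061. Depth limited the isoforms near the floor, for which a value of 0 cannot be told from a few fragments.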

Other observations

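Of the uncoupling and thermogenic genes, 6 of 8 symbols were in the table and 2 passed the filter. Ucp2, a carrier of the inner mitochondrial membrane, had 1327, 1339 and 1477 in MDI, 3274, 2851 and 3503 in OA and 1301, 1387 and 1287 in OA_T0. All OA libraries were above all others, while MDI and OA_T0 were overlapping. It rose in OA against MDI by 1.21 ± 0.076 (SE, adjusted p = 1.05e-07, limma) and fell in OA_T0 against OA (-1.27, adjusted p = 3.81e-08, limma). Both calls were kept without each single library. No other gene of this list passed, and Cox8b of brown fat was at 0.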
